A study of Bos taurus with 94 samples.

Results

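The comparison set the cerebral cortex against deeper regions of the cattle brain, across all genes. Members were chosen by tissue label alone: Cerebral_cortex, Frontal_cortex and Temporal_cortex form the cortex group (n = 3), Thalamus, Pons, Midbrain and Diencephalon form the deep brain group (n = 4), and Hippocampus (n = 1) was placed between the groups as a separate library. These are 8 of the 94 RNA sequencing libraries of the series. All carry the breed label Hereford and the age label adult, and total RNA came from snap-frozen tissue. No treatment, genotype or animal is named, each region is a lone library, and the label Cerebral_cortex does not say which lobe was taken. The p-values therefore measure the spread between regions of a group, and the labels do not say whether the regions came from the same animals. The other 86 libraries are called outside the brain below, though they include choroid plexus, pineal gland, pituitary, and pituitary stalk with median eminence.

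The cerebral cortex is a layered sheet of excitatory projection neurons and inhibitory interneurons. The thalamus relays sensory and motor signals to it, and the midbrain and the pons are parts of the brainstem that carry fibre tracts and many small nuclei. The diencephalon is the part of the brain that includes the thalamus and the hypothalamus, and the labels do not say which portion of it was sampled. The hippocampus is a simpler, older cortical structure folded into the temporal lobe and known for its role in memory. Deep regions are known to hold more myelinated white matter than cortical grey matter. The gene table used pairs 0 of the 24616 Ensembl identifiers with a symbol, so cell type markers of these regions could not be looked up, and genes are described by identifier and by level.

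Levels are FPKM, a count of sequenced fragments divided by transcript length and by the size of the library, and read depth is unknown. The cortex libraries had 12832 to 13135 genes at an FPKM of 1 or more. Midbrain and diencephalon had 13661 and 13331, the hippocampus 12697, and thalamus and pons 11170 and 10891. The deep group thus spanned the cortex group on both sides, and the difference in means did not pass the test (12995 ± 153 in cortex, SD, n = 3, and 12263 ± 1434 in deep brain, SD, n = 4; two-sided exact permutation p = 0.571, adjusted over 4 such measures 0.762). The 10 most abundant genes held 32.5 to 49.9% of the FPKM in cortex and 20.8 to 38.5% in deep brain (exact permutation p = 0.114, adjusted 0.457). With 35 possible splits of 3 against 4 libraries the smallest two-sided p is 0.0571, so no such test could pass 0.05. The library numbers in the titles run from 218 to 224 for cortex, thalamus and pons, and are 28, 81 and 96 for midbrain, hippocampus and diencephalon. The labels do not say what these numbers stand for.

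No gene was called between cortex and deep brain. Of 13335 genes that reached 1 FPKM in at least 3 of the 7 libraries, limma found 0 (0%) that passed both an adjusted p of 0.05 and a 2-fold difference, and the smallest adjusted p was 0.112. At an unadjusted p under 0.05 there were 845 genes (6.34%), 457 of them higher in cortex and 388 higher in deep brain. limma's array quality weights, which gave pons and thalamus the least weight, led to calls for 341 genes (2.56%), and leaving out the diencephalon led to calls for 23 (0.172%). The groups separated without overlap, by at least 2-fold in the means, in 249 genes higher in all cortex libraries (1.87%) and 176 genes higher in all deep libraries (1.32%). These are called cortex-side and deep-side genes below. Without the 2-fold minimum, 333 genes (2.5%) were higher in all cortex libraries and 788 (5.91%) in all deep libraries. If the levels of a gene had no relation to the groups, 1 of the 35 splits would separate it in a given direction. The 2.5% toward cortex is below that share and the 5.91% toward deep brain above it. Genes are not independent of each other, so these counts carry no test. With FPKM rescaled to equal totals the balance turned, to 140 cortex-side and 243 deep-side genes, and with quantile normalization it was 376 and 211. Quantile normalization moved the median difference over all genes from 0.06 to -0.06 on the log2 scale. Many more genes differed 2-fold in the means but overlapped: 867 toward cortex and 211 toward deep brain. In such bulk libraries, fewer cells of a type and less RNA per cell cannot be told apart.

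The genes furthest toward cortex differed in how the deep regions behaved. ENSBTAG00000007036 stood at 376.9, 300.2 and 335.6 FPKM in cerebral, frontal and temporal cortex. In thalamus, pons, midbrain and diencephalon it stood at 2.06, 39.7, 0.0927 and 130.7 FPKM. The cortex libraries were close together and all above the deep libraries, which were scattered widely, with midbrain lowest and diencephalon highest. The log2 difference was 4.86 ± 1.43 (SE; limma adjusted p = 0.601). The hippocampus, at 568.2 FPKM, lay above every cortex library.

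ENSBTAG00000013027 stood at 422.1 FPKM in cerebral and 476.1 in frontal cortex but at 83.3 in temporal cortex. The deep libraries held 2.38 FPKM in thalamus, 2.52 in pons, 7.43 in midbrain and 78.1 in diencephalon. The temporal cortex and the diencephalon nearly met, and the hippocampus (81.4 FPKM) fell between them. The log2 difference was 4.77 ± 1.09 (SE; limma adjusted p = 0.456). Outside the brain this gene had a median of 0 FPKM over 86 libraries and a highest level of 47.6 in the anterior eye.

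The genes furthest toward deep brain were more uniform among the deep regions. ENSBTAG00000000522 stood at 4.55, 3.75 and 2.95 FPKM in cerebral, frontal and temporal cortex, and at 52.9, 96.2, 32.0 and 38.3 FPKM in thalamus, pons, midbrain and diencephalon. The lowest deep library was well above the highest cortex library, and the hippocampus (7.08 FPKM) sat just above cortex. The log2 difference was -3.44 ± 0.42 (SE; limma adjusted p = 0.112, shared with another gene as the smallest of all). The gene is not particular to the brain, since the liver library held 1736 FPKM of it. ENSBTAG00000000582 stood at 3.58, 3.81 and 7.82 FPKM in the cortex libraries and at 60.9, 145.0, 29.5 and 42.8 in the deep ones, with pons highest and midbrain lowest as before. Its log2 difference was -3.35 ± 0.54 (SE; limma adjusted p = 0.259), and the hippocampus held 11.1 FPKM. That the groups do not overlap in these 4 genes follows from how they were chosen.

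**Figure D1:**
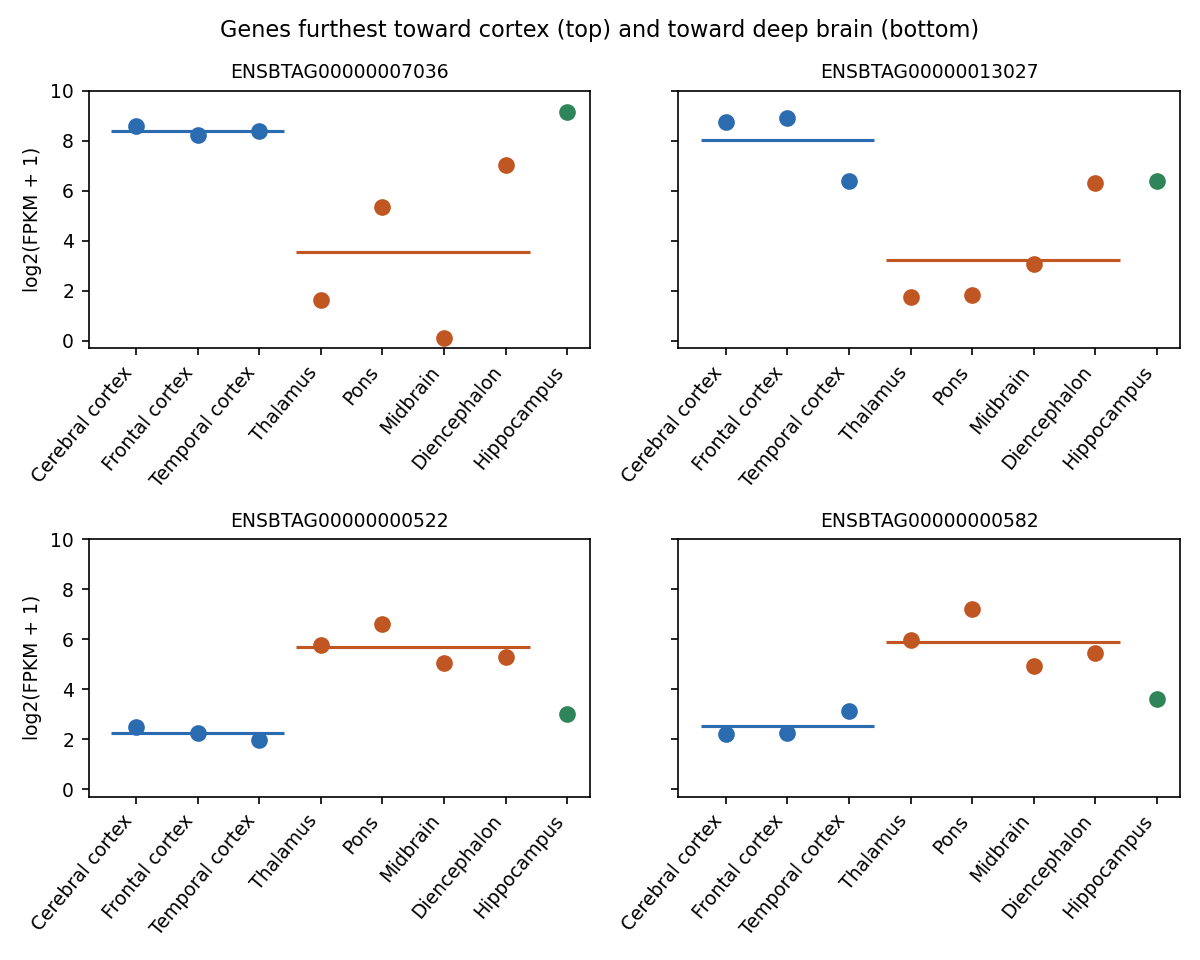
Level of the genes furthest toward cortex (top) and toward deep brain (bottom), as log2(FPKM + 1) on the vertical axis, in each of the 8 brain libraries; each point is a library and each line a group mean. The deep libraries are scattered in the top panels (0.0927 to 130.7 FPKM for ENSBTAG00000007036) and close together in the bottom panels, where the hippocampus lies near cortex.

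By the median over pairs, the deep libraries differed more from each other than from cortex, but the medians have an unlike make-up. Each pair of brain libraries was compared by the number of genes at least 4-fold apart with 10 FPKM or more in either library. Within cortex these numbered 6 between cerebral and frontal cortex, 41 between frontal and temporal, and 89 between cerebral and temporal. Within deep brain they ran from 203 between midbrain and diencephalon to 1931 between pons and diencephalon, with a median of 983 over 6 pairs. From cortex to deep brain they ran from 173 to 1988 with a median of 421 over 12 pairs. Every pair within deep brain except midbrain and diencephalon includes thalamus or pons, a larger share than from cortex to deep brain. Thalamus was 715 to 1231 genes from the other deep libraries and 580 to 1082 from cortex. Pons was 735 to 1931 genes from the other deep libraries and 1213 to 1988 from cortex. The pairs share libraries and carry no test.

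The deep group fell into libraries near cortex and libraries far from it. Midbrain was 173 to 198 genes from the cortex libraries and diencephalon 234 to 262. Thalamus was 580 to 1082 genes from them and pons 1213 to 1988. The thalamus is anatomically a part of the diencephalon, yet the libraries so labelled were 1231 genes apart, of which 1102 were higher in the diencephalon library. Midbrain and pons, neighbours in the brainstem, were 1790 genes apart, 1442 of them higher in midbrain. The closest pair across groups was diencephalon and hippocampus, with 102 genes. Across 13520 genes, which are not independent replicates, Spearman's rho was 0.957 for that pair, 0.943 to 0.977 within cortex, and 0.742 to 0.918 within deep brain.

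**Figure D2:**
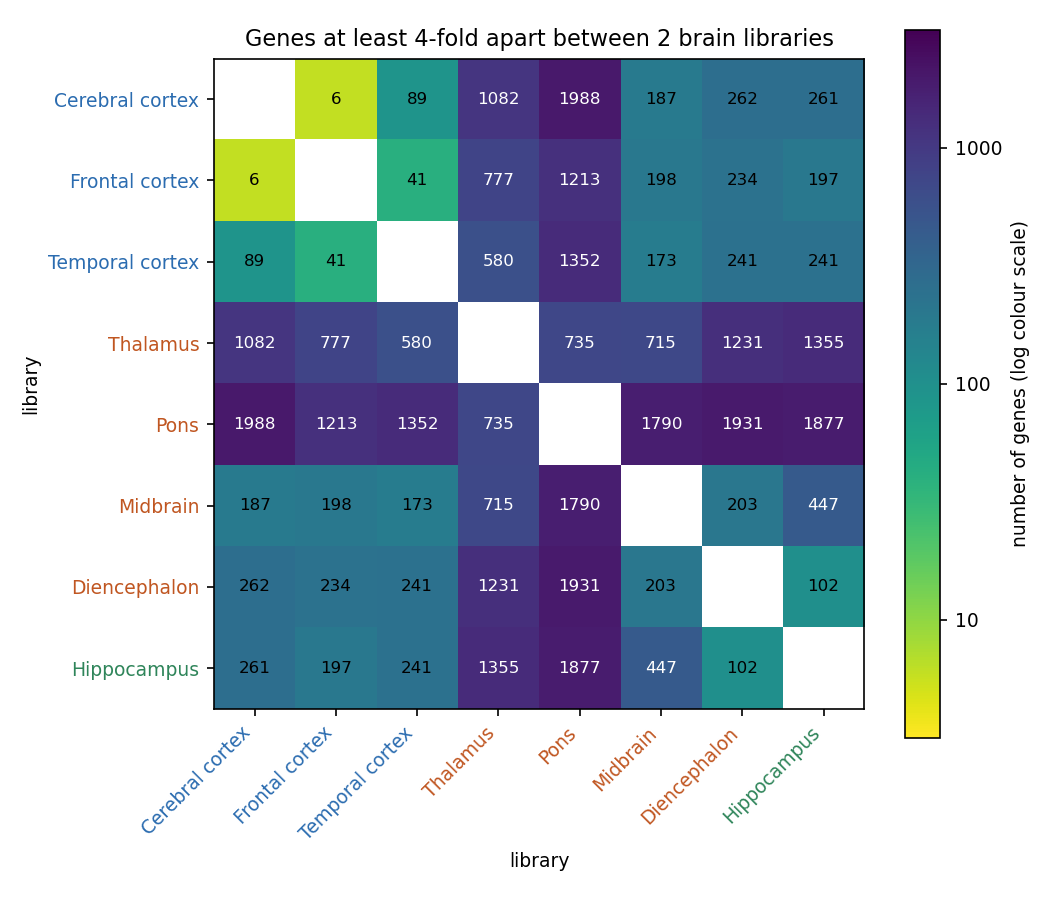
Number of genes at least 4-fold apart, with 10 FPKM or more in either library, for each pair of the 8 brain libraries; rows and columns are libraries, label colours mark cortex, deep brain and hippocampus, and the colour scale is logarithmic. Thalamus and pons form dark bands (580 to 1988 genes against every cortex library), while midbrain and diencephalon stay between 173 and 262 genes of cortex.

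Thalamus and pons left the cortex range in more genes than the other brain libraries did. Of 13335 genes, 2364 in thalamus and 3314 in pons lay at least 2-fold below the lowest cortex library, against 145 in midbrain, 190 in diencephalon and 505 in hippocampus. Genes at least 2-fold above the highest cortex library numbered 425 in thalamus, 1263 in pons, 446 in midbrain, 602 in diencephalon and 458 in hippocampus. The size of this excess of low over high genes in thalamus and pons depended on the scaling. With FPKM rescaled to equal totals, 2248 genes were below and 408 above in thalamus, and 3510 below and 915 above in pons. In midbrain, diencephalon and hippocampus, 100, 119 and 392 genes were then below and 800, 1002 and 665 above. Thalamus thus had the fewest genes above cortex under this scaling, and diencephalon more than pons. Quantile normalization gives every library the same distribution of values. With it 1233 genes were below and 955 above in thalamus, and 1716 below and 1684 above in pons. The counts in the other 3 libraries then ran from 260 to 473 in either direction. The share that was low, in FPKM as deposited, depended on the level in cortex. Of 6818 genes at 1 to 10 FPKM in the lowest cortex library, 22.4% were under 1 FPKM in thalamus and 31.5% in pons, against 1.29% in midbrain, 2.92% in diencephalon and 8.15% in hippocampus. Of 4869 genes at 10 to 100 FPKM the shares were 1.4% in thalamus and 3.33% in pons, and 0.205% or less in the other libraries. Thalamus also listed 590 of the 6818 genes at 0, and pons 112. Whether read depth or RNA quality differed between these libraries cannot be read from the deposited values, and its part in these counts was not tested.

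Genes that are rare outside the brain were lowest in the same libraries. A set of 85 genes was taken with 10 FPKM or more in every cortex library and a 90th percentile under 1 FPKM over the 86 other libraries of the series. Their median difference from the cortex mean was -2.67 in thalamus and -2.96 in pons on the log2 scale. It was -0.30 in midbrain, 0.16 in diencephalon and 0.16 in hippocampus. The set was chosen in cortex, so a lower level elsewhere is built into it, but none of the other 5 brain libraries took part in the choice. Under 1 FPKM were 18 of the 85 in thalamus and 28 in pons, 4 in midbrain, and 1 each in diencephalon and hippocampus.

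**Figure D3:**
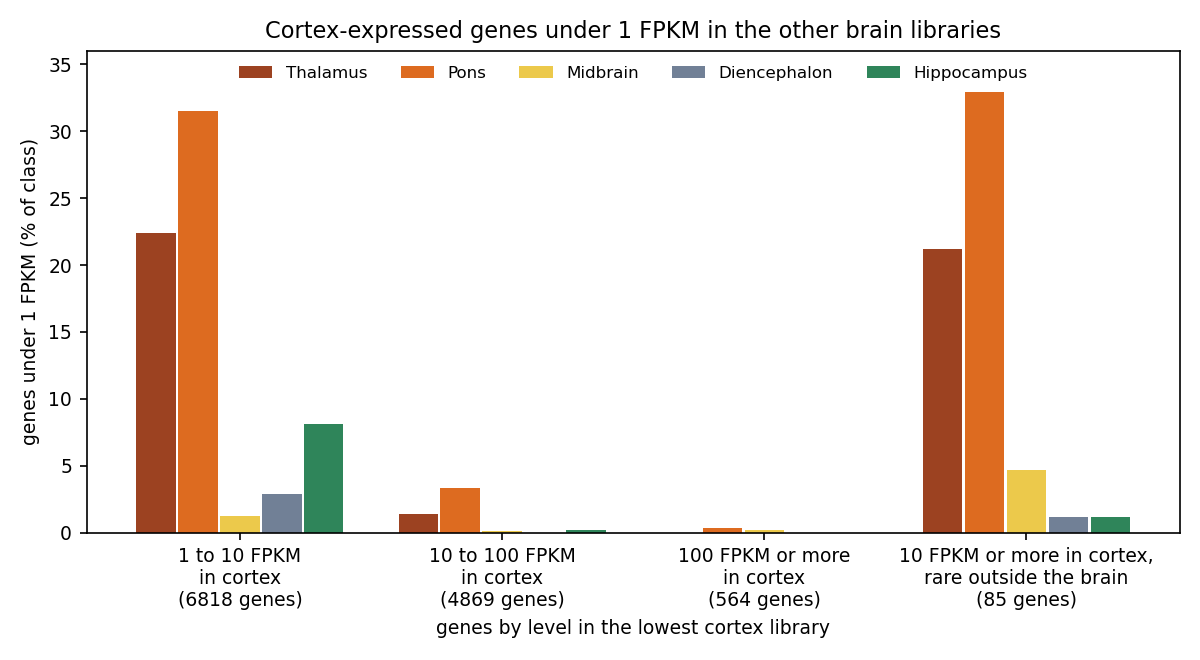
Share of cortex-expressed genes under 1 FPKM in each brain library outside cortex, in percent of the class, for genes grouped by their level in the lowest cortex library and for genes rare outside the brain; each bar is a library. Thalamus (22.4%) and pons (31.5%) stand above the others among 6818 low genes, and again among the 85 genes rare outside the brain.

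Genes expressed in nearly all tissues were measured as a reference chosen outside the brain, with 5 FPKM or more in at least 90% of the 86 other libraries. Of these 4437 genes, 432 in pons and 232 in thalamus lay at least 4-fold below the median of the other libraries. The remaining brain libraries had 85 to 183 such genes, and the other 86 libraries a median of 26 and a range of 0 to 1154. The genes were chosen in those 86 libraries, so a low count there is built into the set. Pons and thalamus thus had the most broad genes 4-fold below among the brain libraries. By the median log2 difference over all 4437 genes, temporal cortex was the lowest brain library (-0.44), ahead of thalamus (-0.30) and pons (-0.17). The closest library to pons over the 13520 genes was the one labelled isthmus_ipsilateral_CL, a part of the oviduct (Spearman's rho 0.850), slightly ahead of thalamus (0.845). Over 18031 genes, filtered on all 94 libraries, a brain library came first for pons (0.872 against 0.858). For each of the other 7 brain libraries the closest library was a brain library under both filters.

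With either pair of deep libraries left out, a choice made after these differences were seen, limma called genes. Against thalamus and pons, which share the run of title numbers with cortex, 2352 genes were higher in cortex (17.6%) and 396 were lower (2.97%). Against midbrain and diencephalon, 20 were higher in cortex (0.15%) and 101 were lower (0.757%). The balance of directions depended on the scaling. With FPKM rescaled to equal totals, 2551 genes were higher in cortex and 306 lower against thalamus and pons. Against midbrain and diencephalon 26 were then higher and 317 lower. With quantile normalization 1078 genes were higher and 801 lower against thalamus and pons, and 12 higher and 19 lower against midbrain and diencephalon. Both comparisons use the same cortex libraries and the pairs were chosen for their profiles, so these counts describe the libraries. ENSBTAG00000000522 was called in both comparisons, with log2 differences of -3.94 ± 0.41 (SE; limma adjusted p = 0.00183) and -2.94 ± 0.29 (limma adjusted p = 0.00619). ENSBTAG00000000582 was also called in both (log2 differences -4.04 and -2.66; limma adjusted p = 0.00291 and 0.0158). It was no longer called against midbrain and diencephalon with quantile normalization. ENSBTAG00000007036 and ENSBTAG00000013027 passed against thalamus and pons (limma adjusted p = 0.00929 and 0.00245) and not against midbrain and diencephalon (0.179 and 0.146). The named genes were picked from these same libraries for large differences without overlap, so their p-values here describe them and are not independent support.

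The cortex-side genes carried this scatter and the deep-side genes less so. Among the 249 cortex-side genes the lowest deep library was thalamus in 128 and pons in 111, and the highest was diencephalon in 128 and midbrain in 108. Among the 176 deep-side genes the highest deep library was pons in 73, thalamus in 50, diencephalon in 42 and midbrain in 11. Over the 100 genes with the largest moderated t on each side, the cortex-side genes had means of log2(FPKM + 1) from 4.13 to 4.72 in the cortex libraries. In the deep libraries they averaged 1.63 in thalamus, 1.73 in pons, 2.63 in midbrain and 2.99 in diencephalon. The deep-side genes averaged 3.83 to 4.14 in cortex and 5.39 to 5.69 in deep brain. These averages follow from how the genes were chosen and are given as a description.

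The hippocampus took no part in choosing the genes and lay between the groups on both sides. Its cortex-side genes averaged 3.67 and its deep-side genes 4.46. On an axis from 0, the mean of the deep libraries, to 1, the mean of the cortex libraries, its position was 0.67. The ends are means of the libraries that chose the genes, so a library outside the choice is drawn toward the middle. Placed on genes chosen without it, temporal cortex moved from 0.87 to 0.64 and diencephalon from 0.23 to 0.75. A place of the hippocampus between the groups is therefore partly built in. Of the 249 cortex-side genes, the hippocampus reached the cortex range in 96, lay between the groups in 50 and reached down to the deep range in 103. Of the 176 deep-side genes it reached the cortex range in 74, lay between in 46 and reached the deep range in 56. It was nearer the cortex mean in 62.2% and 65.3% of these genes, against 55.5% of all 13335 genes tested. On both sides, fewer genes lay between the groups than reached the range of either group. Levels beyond a range were counted with it, and the gap between the groups can be narrow, so the definition favours fewer genes between.

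**Figure D4:**
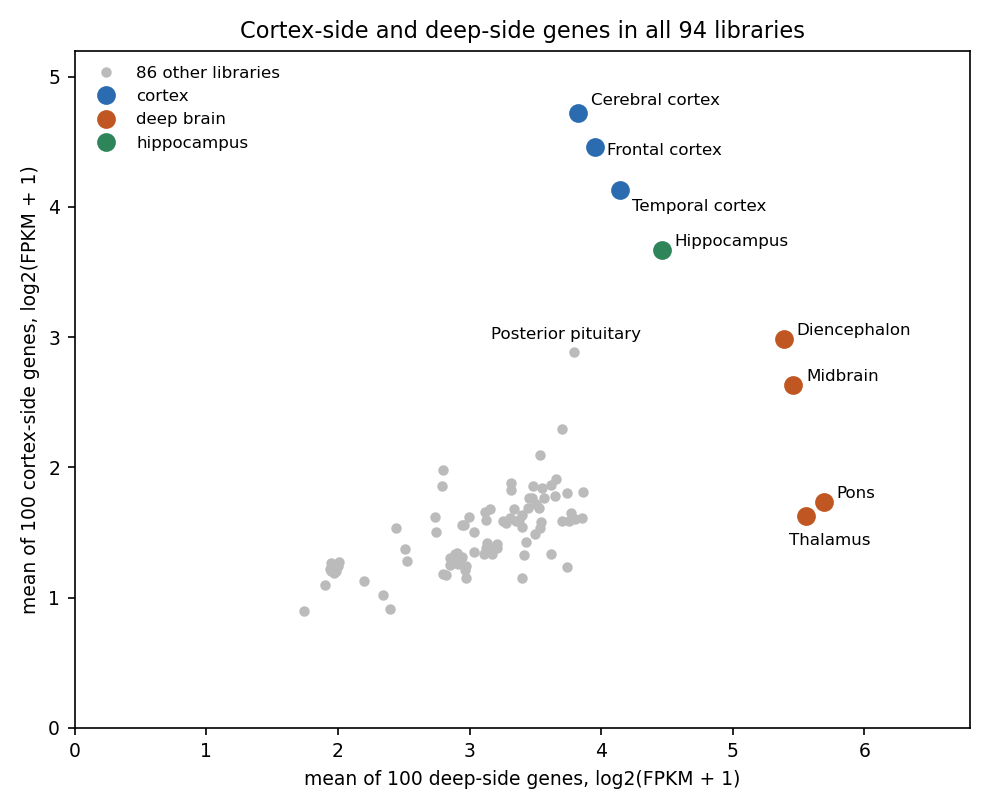
Mean level of the 100 cortex-side genes (vertical) and the 100 deep-side genes (horizontal), as log2(FPKM + 1), in all 94 libraries; each point is a library. The hippocampus (3.67 and 4.46) lies between cortex and deep brain, and the 86 other libraries lie below 2.89 on the vertical and 3.86 on the horizontal axis. The cortex and deep libraries chose these genes and the hippocampus did not, so a place between them is partly built in.

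The hippocampus was also compared with each library on genes that neither had helped to choose. Each of the 7 libraries was placed in turn on an axis whose genes and ends were set without it, and the hippocampus was placed on that same axis. Cerebral cortex then stood at 1.10 beside 0.76 for the hippocampus, frontal cortex at 0.93 beside 0.61, and temporal cortex at 0.64 beside 0.58. Thalamus stood at 0.11 beside 0.57, pons at 0.11 beside 0.62, midbrain at 0.43 beside 0.51, and diencephalon at 0.75 beside 1.07. The hippocampus was below the cortex library in each of these 3 comparisons and above the deep library in each of the 4. The gaps to temporal cortex and to midbrain were smaller than the spread of held-out positions within a group (SD 0.28, pooled over the 7 libraries). These placements carry no test. The ends of the axis differ from 1 held-out library to the next, so the hippocampus was compared with each library only on the same genes. The SD was taken across these differing axes and is a rough guide only.

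The diencephalon moved most between the settings, from 0.23 on genes it helped choose to 0.75 on genes it did not. Held out, its cortex-side genes averaged 4.64, near the 5.15 of cortex and far from the 2.03 of the other deep libraries. Its deep-side genes averaged 5.23, between the 4.50 of cortex and the 6.32 of the other deep libraries. Without the diencephalon the hippocampus moved to the cortex end, at 1.07, and without thalamus and pons together it moved to 0.44, on the deep side of the middle of the axis.

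**Figure D5:**
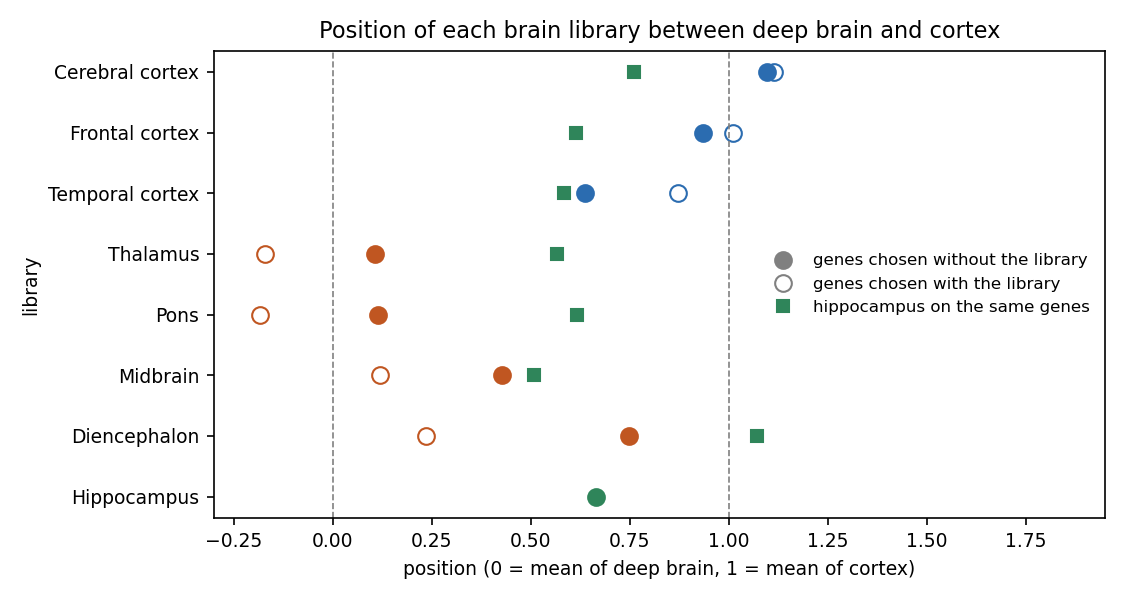
Position on the axis from deep brain (0) to cortex (1), a row for each brain library; filled circles are the library placed on genes chosen without it, green squares the hippocampus on the same genes, and open circles the library on genes it helped choose, and in the bottom row the green circle is the hippocampus on the axis of all 7 libraries. In each row the square lies left of the filled circle for cortex (0.58 and 0.64 for temporal cortex) and right of it for deep brain (1.07 and 0.75 for diencephalon).

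An intermediate position on this axis was not particular to the brain. The 86 other libraries stood between 0.21 and 0.69 with a median of 0.43, a range that holds the hippocampus, with the genes of both sides low in them. Their cortex-side genes averaged 0.90 to 2.89, highest in the posterior pituitary, and their deep-side genes 1.74 to 3.86, highest in the anterior eye. Thalamus, pons and midbrain, with cortex-side averages of 1.63, 1.73 and 2.63, fell within that range on the cortex side and above it on the deep side. Diencephalon, with a cortex-side average of 2.99, lay above the range on both sides. Cortex-side genes were more often under 1 FPKM outside the brain than deep-side genes. The median level over the 86 libraries was under 1 FPKM for 114 of the 249 cortex-side genes (45.8%) and 42 of the 176 deep-side genes (23.9%), against 14.5% of all genes tested. The median over each set of these levels was 1.35 FPKM for the cortex side and 8.46 for the deep side, beside 7.89 for all genes tested. The sets also differed in brain level, with a median of the brain means of 9.74 FPKM for the cortex side and 23.7 for the deep side. For all genes tested it was 9.77. Genes of either side could pass the filter through their higher group alone, so all genes tested are not a like background. No test was made.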

How the data were processed

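RNA sequencing covered 94 bovine libraries, 8 of them brain regions. The authors deposited FPKM per gene and library. HISAT2, StringTie and the genome build UMD3.1 are named in the submitters' processing notes, without versions, annotation release or filters. Read depth is unknown, so no counting intervals are given.

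Values were analysed as log2(FPKM + 1), which understates folds of low genes. Genes that reached 1 FPKM in at least 3 of the 7 cortex and deep libraries were tested (13335), since genes no brain library expresses cannot differ. The test was limma (version 3.58.1, R 4.3.3), two-sided, with trended empirical Bayes and Benjamini-Hochberg adjustment over all 13335 genes. Calls needed an adjusted p below 0.05 and an absolute log2 difference of 1 or more. The step was tested on simulated data. Single values were tested by exact permutation over 35 splits.

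The axis score is the mean of the 100 cortex-side genes minus that of the 100 deep-side genes, ranked by moderated t, scaled to the group means. Named genes are those with the largest differences among genes without overlap and with a mean of at least 5 FPKM in the higher group. With 0 identifiers matched to a symbol, 2 in each direction are printed, and the 26 lists of marker genes prepared by symbol could not be used. Replicates are different regions, numbered here only as names. The members and lists were chosen with earlier results of these data known. Alternatives were other filters, a pseudocount of 0.1, rescaling, quantile normalization, other estimates of the spread, array quality weights, other numbers of axis genes, and libraries left out.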

Additional observations from a re-analysis of the deposited data

How the results depend on the processing

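The count of 0 called genes held with no filter, with the filter over all 94 libraries, with a pseudocount of 0.1, with either scaling, with robust empirical Bayes, and with the spread from all 94 libraries, where follicle was the only other tissue with replicates. It was 341 (113 higher in cortex, 228 lower) with array quality weights, which gave pons and thalamus the lowest weights (0.143 and 0.262). Leaving out each library gave 0 to 23, with 23 without the diencephalon. The count of 249 cortex-side genes became 140 after rescaling, 376 with quantile normalization and 223 to 711 with each library left out (592 without temporal cortex, 633 without midbrain, 711 without diencephalon). The count of 176 deep-side genes ran from 158 to 350 in that series (282 without temporal cortex, 322 without thalamus, 293 without midbrain, 350 without diencephalon). The remaining alternatives were added after seeing the data. Leaving out thalamus and pons gave 121 called and 629 deep-side genes, or, with quantile normalization, 31 called and 295 deep-side. With rescaled totals it gave 343 called, 1251 deep-side and 113 cortex-side genes. Leaving out midbrain and diencephalon gave 2748 called, 3385 cortex-side and 764 deep-side genes, and with quantile normalization these became 1879, 1706 and 1544. With rescaled totals they became 2857, 3631 and 609. The hippocampus stood at 0.57 to 0.72 with other numbers of genes, a pseudocount of 0.1 or other scaling. It stood at 0.51 to 1.07 with each library left out (1.07 without the diencephalon) at 1.09 without midbrain and diencephalon, and at 0.44 without thalamus and pons. Held-out positions with 50 or 200 genes moved by less than the spread of held-out positions within a group (SD 0.28, a rough guide taken across differing axes). The 4 named genes kept their direction in all 21 alternatives each, which was largely fixed by how they were chosen. Leaving libraries out cannot reverse a gene whose groups do not overlap. Other filters, another spread and robust empirical Bayes leave the log2 difference unchanged. The cause of the shifts in the counts and in the position of the hippocampus was not tested. No paired analysis was possible because the labels give no replicate numbers or animals.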

Other observations

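Few genes were particular to a lone brain region outside the pons. Genes at 10 FPKM or more and at least 4-fold above each of the other 7 brain libraries numbered 117 in pons, 18 in diencephalon, 17 in midbrain, 8 in hippocampus, 4 in temporal cortex, 3 each in thalamus and frontal cortex, and 0 in cerebral cortex. Genes at least 4-fold below each of the others, which all held 10 FPKM or more, numbered 121 in pons, 15 in thalamus, 4 in hippocampus and 0 in the remaining libraries. A gene high in both cerebral and frontal cortex, which were 6 genes apart, counts for neither. Low counts in the cortex libraries therefore do not show a lack of genes particular to cortex. These counts carry no test, since each region is a lone library.

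The genes that stood out in diencephalon, midbrain and hippocampus were mostly rare outside the brain. Their median level over the 86 other libraries was under 1 FPKM in 13 of 18, 12 of 17 and 6 of 8. In pons this held for 38 of 117. The 4 genes of temporal cortex were all at 1 FPKM or more outside the brain, with a median level there of 130.8 FPKM and of 1153 FPKM in temporal cortex itself. Genes at 10 FPKM or more that stayed under 1 FPKM in all of cortex numbered 61 in pons, 15 in diencephalon, 11 in midbrain, 6 in hippocampus and 2 in thalamus. Thalamus was the library that listed the most genes at 0 while every other brain library held 1 FPKM or more, with 125 genes against 7 in pons and 0 or 1 in the others.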
